A study of Mus musculus with 8 samples.

Results

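The 10 genes described here encode members of the BCL2 family other than those usually described as p53 targets: Bcl2, Bcl2l1, Bcl2l2, Mcl1, Bak1, Bcl2l11, Bid, Bad, Bmf and Bik. Every probe set that the platform annotation gives to exactly 1 of these genes was taken, whatever its values. The 10 genes stand among 18606 genes named on the arrays, 18193 in the Twist1 table and 17084 in the Twist1/p53 table. They were read by 37 probe sets in the Twist1 table and by 31 in the Twist1/p53 table, and all 10 matched RefSeq genes on autosomes.

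Expression was measured on 8 microarrays of epithelial cells sorted from mouse skin tumours, 2 for each of 4 groups. The Twist1 controls were Twist1fl/fl mice and the Twist1 deletion mice were K14CreER:Twist1fl/fl. The Twist1/p53 controls were Twist1fl/fl:p53fl/fl mice and the Twist1/p53 deletion mice were K14CreER:Twist1fl/fl:p53fl/fl. In all 4 groups the mice carried skin tumours induced with DMBA, a carcinogen, and TPA, a tumour promoter, and all received 5 doses of 2 mg tamoxifen. Tamoxifen activates CreER, a recombinase driven here by the keratin 14 promoter of basal epithelial cells, and the controls carried no Cre. Cells were sorted as Epcam+/Lin-/DAPI-, with Lin standing for antibodies to CD45, CD31 and CD140a. The mice were littermates of mixed background that could combine several transgenes, and their ages are not given in the labels. The labels do not say that every array came from a separate mouse, so the errors measure the spread between these arrays. The comparisons ask how tumour cells respond to loss of Twist1, and how that response differs when p53 is lost as well.

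BCL2 family proteins set the threshold for mitochondrial apoptosis. The pro-survival members Bcl2, Bcl2l1 (BCL-XL), Bcl2l2 (BCL-W) and Mcl1 bind and restrain the effectors Bax and Bak1, which otherwise permeabilise the outer mitochondrial membrane and release cytochrome c. BH3-only proteins such as Bcl2l11 (BIM), Bid, Bad, Bmf and Bik carry stress signals to them by occupying the pro-survival proteins or by activating the effectors directly. In epithelia, BIM and BMF are known for their part in the death of cells that lose matrix attachment, and MCL1 for keeping keratinocytes alive. Many of these proteins are controlled by phosphorylation, cleavage or turnover, which an RNA array does not read.

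Promoter sequences are shown for the 3 genes that had a probe set with an unadjusted p under 0.05, because an E-box (CANNTG) is the element that basic helix-loop-helix factors such as Twist1 bind and because Bcl2l11 is a known target of FOXO factors. Each is the 250 bases before a RefSeq transcript start (assembly GRCm38.p6), 5′ to 3′ on the strand of the gene, and capitals mark the FOXO motif GTAAACA. The windows lie at chr2:128125788-128126037 (plus strand) and chr2:128127325-128127574 (plus strand) for Bcl2l11, chr14:54883175-54883424 (plus strand) for Bcl2l2 and chr17:27028628-27028877 (minus strand) for Bak1.
Bcl2l11, start 1: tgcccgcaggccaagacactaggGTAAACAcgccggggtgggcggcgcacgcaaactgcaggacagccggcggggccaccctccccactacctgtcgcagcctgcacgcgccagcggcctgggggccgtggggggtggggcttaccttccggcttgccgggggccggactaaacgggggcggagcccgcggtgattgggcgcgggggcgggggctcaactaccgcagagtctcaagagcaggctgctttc
Bcl2l11, start 2: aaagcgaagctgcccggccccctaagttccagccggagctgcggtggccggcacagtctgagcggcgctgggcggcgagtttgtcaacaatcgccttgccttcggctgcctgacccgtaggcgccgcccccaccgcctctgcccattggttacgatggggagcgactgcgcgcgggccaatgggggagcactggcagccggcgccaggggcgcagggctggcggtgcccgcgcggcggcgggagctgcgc
Bcl2l2: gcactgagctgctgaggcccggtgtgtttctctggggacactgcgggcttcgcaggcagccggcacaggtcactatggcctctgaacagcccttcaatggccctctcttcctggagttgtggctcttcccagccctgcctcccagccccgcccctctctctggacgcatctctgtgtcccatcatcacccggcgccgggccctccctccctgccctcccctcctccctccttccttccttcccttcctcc
Bak1: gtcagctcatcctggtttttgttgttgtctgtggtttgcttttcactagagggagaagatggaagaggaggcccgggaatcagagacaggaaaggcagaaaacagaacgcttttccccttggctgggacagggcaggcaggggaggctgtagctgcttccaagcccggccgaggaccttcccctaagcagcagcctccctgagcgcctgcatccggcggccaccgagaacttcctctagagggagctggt

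None of these 4 windows held an E-box on either strand. GTAAACA was found once, in the first Bcl2l11 window, at bases -227 to -221 from the transcript start. The GC box (GGGCGG, either strand) occurred 3 times in the first Bcl2l11 window, 2 times in the second, once in the Bcl2l2 window and not in the Bak1 window. RefSeq windows were found for 9 of the 10 genes, 15 in all, of which 9 held an E-box, in Bcl2l1, Mcl1, Bad and Bmf, 1 held GTAAACA and 7 held a GC box. Over the 32851 windows of all genes, 66.2% held an E-box, 3.17% held GTAAACA and 32.7% held a GC box. A match or its absence describes the letters of these windows only.

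The deposited log2 signals were read within each table, since the 2 tables come from different array types and were normalized separately. Twist1 itself gave 5.20 and 7.18 on Twist1 control arrays against 3.81 and 3.90 on deletion arrays (difference -2.33, SE 0.62, limma adjusted p = 0.41). It fell by 1.19 in the Twist1/p53 comparison (SE 0.15, adjusted p = 0.045), though not past the threshold without either control array, at a probe set whose place relative to the deleted part is not known here. Epcam read between 10.4 and 11.6 on all 8 arrays and Krt5 and Krt14 between 12.7 and 14.3, while Ptprc, the CD45 gene, was under the level tested in both tables. Means over the leukocyte markers were 5.36 to 5.52 on the Twist1 arrays and 4.78 to 4.89 on the Twist1/p53 arrays. Single leukocyte markers moved in both directions in the Twist1/p53 table, 10 of 16 tested higher and 6 lower. Groups were apart at 9 of the 16, against 53.5% of all tested probe sets. Cd14 read 5.50 and 5.61 in controls against 6.30 and 7.49, and Cd3e 5.00 and 4.90 against 4.24 and 4.31. Xist was high in both control groups and low in both deletion groups and the Y-linked Eif2s3y the reverse, so the sex of the mice, the presence of Cre and the deletion cannot be told apart in any value below. In the Twist1 table, the 3′ minus 5′ signal of Gapdh was 0.04 and 0.03 on control arrays and 0.22 and 0.30 on deletion arrays, and that of Actb 0.63 and 0.63 against 0.95 and 0.78. These measures of RNA integrity did not separate the groups in the Twist1/p53 table, and their part in the values below was not tested. The same holds for the means over the epithelial markers, at 11.86 and 11.79 in the Twist1 controls against 11.55 and 11.60, over the melanocyte markers, at 4.83 and 5.00 against 5.10 and 5.22, and over the poly-A labelling controls, at 8.36 and 9.26 against 9.63 and 10.64. Single epithelial markers moved further in the Twist1 table, 7 of 10 lower and 3 higher. Groups were apart at 6 of these 10, against 42.6% of all tested probe sets. Krt1 read 12.01 and 11.83 against 10.40 and 9.83, and Krt10 12.48 and 12.48 against 11.65 and 10.29. Epcam rose from 10.38 and 10.54 to 10.82 and 11.62. Means over the endothelial markers were 5.01 and 4.92 against 5.02 and 5.05 there, and on the Twist1/p53 arrays 4.81 and 5.04 against 4.81 and 4.69, apart in opposite directions. The epithelial, melanocyte, fibroblast and labelling control means overlapped in the Twist1/p53 table, but single markers did not. Of its 10 epithelial markers 6 had groups apart, among them Epcam at 10.42 and 10.46 against 10.95 and 11.01, Krt1 at 12.67 and 12.65 against 10.88 and 12.26, and Krt10 at 12.46 and 12.55 against 10.65 and 12.05. Of its 9 tested fibroblast markers 8 had groups apart, 4 higher and 4 lower, and Lum fell from 4.71 and 4.94 to 3.69 and 3.75 (SE 0.12, limma adjusted p = 0.036). Larger differences, which did not pass the test, went both ways. Col1a1 differed by -2.52 (SE 0.57) and Col3a1 by -2.04 (SE 0.93), while Dcn differed by 1.85 (SE 0.65) and Postn by 1.56 (SE 0.47). The part of these markers in the values below was not tested.

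No BCL2 family probe set passed the test in either comparison. After Twist1 deletion 34 of the 37 probe sets had a mean of at least 4.29, the level needed for testing, covering all 10 genes, and 0 were called at a limma adjusted p under 0.05 (lowest 0.45), where 0.0286% of all 27956 probe sets were called. An unadjusted p under 0.05 was reached by 4 of the 34 (11.8%), near the 9.54% among all probe sets. The groups did not overlap in 17 of the 34 (50%), 14 higher and 3 lower, against 42.6% of all. The median log2 fold change was 0.11 over the 34 and -0.03 over all, with 24 higher and 10 lower, and 28 were smaller than 0.5 in size. In these sorted populations, fewer cells of a type and less RNA per cell cannot be told apart.

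After Twist1/p53 deletion 27 of 31 probe sets reached the level for testing, 3.88 in that table, again covering all 10 genes, and 0 were called (limma, lowest adjusted p = 0.075), although 1.62% of all 23091 probe sets were. An unadjusted p under 0.05 was reached by 3 (11.1%), below the 20.5% among all, and 12 (44.4%) had groups that did not overlap, 7 higher and 5 lower, against 53.5% of all. The median was 0.07 over the 27 and -0.02 over all, with 16 higher and 11 lower, and 25 were smaller than 0.5 in size. Single arrays decided these counts. Without deletion array 1, 6 of the 27 probe sets passed (22.2%, against 27.5% of all), and without deletion array 2, 5 passed (18.5%, against 25.0% of all). In both cases the lone deletion array was assumed to vary like the controls, although across all probe sets the difference between replicate arrays had an SD of 0.459 in the deletion group and 0.189 in the controls. Without either control array, 0 passed among the 27 and among all.

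**Figure D1:**
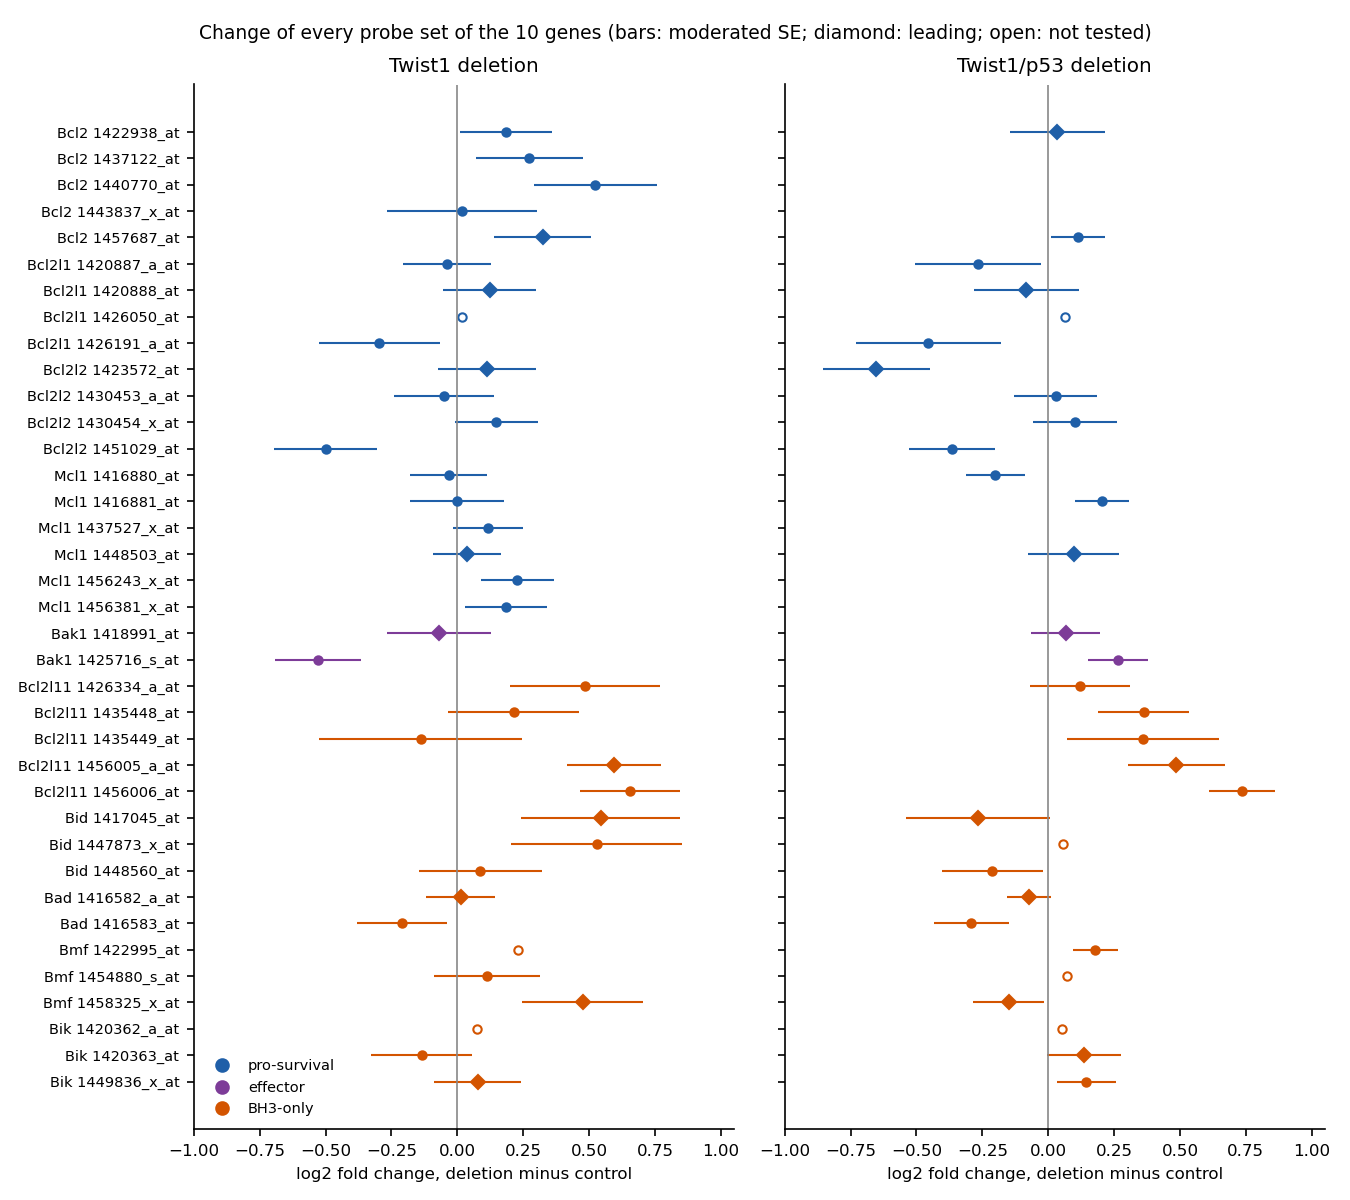
Log2 fold change (deletion minus control) of every probe set of the 10 genes, with moderated standard errors, in the Twist1 comparison (left) and the Twist1/p53 comparison (right). Diamonds mark the probe set with the highest mean of each gene in that table and open circles those too dim to test; most values lie within 0.5 of 0, and Bcl2l11 1456006_at is the highest in both panels.

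Among the pro-survival genes, Mcl1, whose short-lived protein is needed by many epithelial cells, differed by less than its error at the leading probe set in both comparisons. Its leading probe set 1448503_at, the one with the highest mean, gave 11.44 and 11.24 on Twist1 control arrays and 11.34 and 11.42 on deletion arrays. The difference was 0.04 (SE 0.13, limma adjusted p = 0.94, 95% interval -0.29 to 0.36). The Twist1/p53 arrays gave 9.63 and 9.50 against 9.45 and 9.87, a difference of 0.10 (SE 0.17, adjusted p = 0.80, interval -0.35 to 0.55). The groups overlapped in both tables, and the intervals give the range of change that these arrays leave possible. The other 5 Mcl1 probe sets of the Twist1 table differed by -0.03 to 0.23, and 3 of them, 1437527_x_at, 1456381_x_at and 1456243_x_at, had both deletion arrays above both controls. The other 2 of the Twist1/p53 table differed in opposite directions, 1416881_at by 0.20 and 1416880_at by -0.20, each with groups that did not overlap.

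Bcl2, the founding pro-survival gene of the family, was read by 5 probe sets in the Twist1 table and all 5 were higher in the deletion arrays, although 1443837_x_at was at 0.02 and turned to -0.005 under quantile normalization, to -0.37 without control 1 and to -0.10 without deletion array 2. The leading probe set there, 1457687_at, gave 7.03 and 7.29 on control arrays and 7.43 and 7.54 on deletion arrays (log2 fold change 0.32, SE 0.18, limma adjusted p = 0.61). The groups did not overlap, and the same held for 3 of the other 4. The largest difference, 0.52 (SE 0.23, adjusted p = 0.55), was that of the dim 1440770_at, which was 0.22 without control 1 and 0.82 without control 2. In the Twist1/p53 table only 2 Bcl2 probe sets were named. The leading 1422938_at read 6.78 and 6.55 against 6.83 and 6.57 (0.03, SE 0.18, adjusted p = 0.94) with overlapping groups. There 1457687_at was dim, at 4.13 and 4.29 against 4.30 and 4.34 (0.11, SE 0.10, adjusted p = 0.60).

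Bcl2l1 encodes BCL-XL, a long-lived pro-survival protein, and BCL-XS by alternative splicing. Its leading probe set 1420888_at gave 8.46 and 8.55 on Twist1 control arrays and 8.77 and 8.48 on deletion arrays (0.12, SE 0.18, limma adjusted p = 0.84). Values in the Twist1/p53 table were 8.52 and 8.39 against 8.61 and 8.13 (-0.08, SE 0.20, adjusted p = 0.86). Groups overlapped in both tables, as they did for every Bcl2l1 probe set. In the Twist1/p53 table deletion array 2 lay below both controls at each of the 3 tested probe sets, while deletion array 1 lay between the controls or above them. The widest gap was at 1426191_a_at, with 8.60 and 8.35 in the controls against 8.37 and 7.66 (-0.46, SE 0.28, adjusted p = 0.43). Without deletion array 1 this probe set and 1420887_a_at passed the test, so their calls rested on a single array.

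Bcl2l2, which encodes the pro-survival protein BCL-W, had the most negative difference of the 10 genes after Twist1/p53 deletion, though it did not pass the test. The leading probe set 1423572_at gave 7.49 and 7.42 on control arrays and 6.58 and 7.03 on deletion arrays. Both deletion arrays lay below both controls (log2 fold change -0.65, 1.57-fold lower, SE 0.20, unadjusted p = 0.025, limma adjusted p = 0.18). Without deletion array 1 the value was -0.43 and without deletion array 2 it was -0.88. Without control 1 or control 2 it was -0.62 and -0.69. The same probe set gave 8.13 and 8.32 against 8.19 and 8.48 in the Twist1 comparison, with overlapping groups (0.11, SE 0.18, adjusted p = 0.87). The other probe sets of Bcl2l2 gave different values. The dimmer 1451029_at was below both controls in both comparisons, with differences of -0.50 (SE 0.20, adjusted p = 0.52) after Twist1 deletion, from 5.06 and 5.45 to 4.83 and 4.69, and -0.37 (SE 0.16, adjusted p = 0.30) after Twist1/p53 deletion, from 5.05 and 5.40 to 4.81 and 4.91. The other 2 differed by -0.05 to 0.15 in both comparisons.

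Bak1 is the only pore-forming effector among the 10 genes, and its 2 probe sets gave different pictures. The leading 1418991_at gave 7.71 and 7.69 on Twist1 control arrays and 7.83 and 7.44 on deletion arrays (-0.07, SE 0.20, limma adjusted p = 0.93; 0.01 under quantile normalization). It gave 8.69 and 8.70 on Twist1/p53 control arrays against 8.87 and 8.66 on deletion arrays (0.07, SE 0.13, adjusted p = 0.82), and groups overlapped in both. The second, 1425716_s_at, gave 5.39 and 5.49 on Twist1 control arrays and 4.99 and 4.83 on deletion arrays (-0.53, SE 0.16, unadjusted p = 0.020, adjusted p = 0.46). In the Twist1/p53 table it went the other way, from 8.54 and 8.54 to 8.83 and 8.78 (0.27, SE 0.11, adjusted p = 0.28). In each table its groups did not overlap. On control arrays this probe set read well below the leading one in the Twist1 table but close to it in the Twist1/p53 table. The part of this unlike reading in the opposite directions was not tested.

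**Figure D2:**
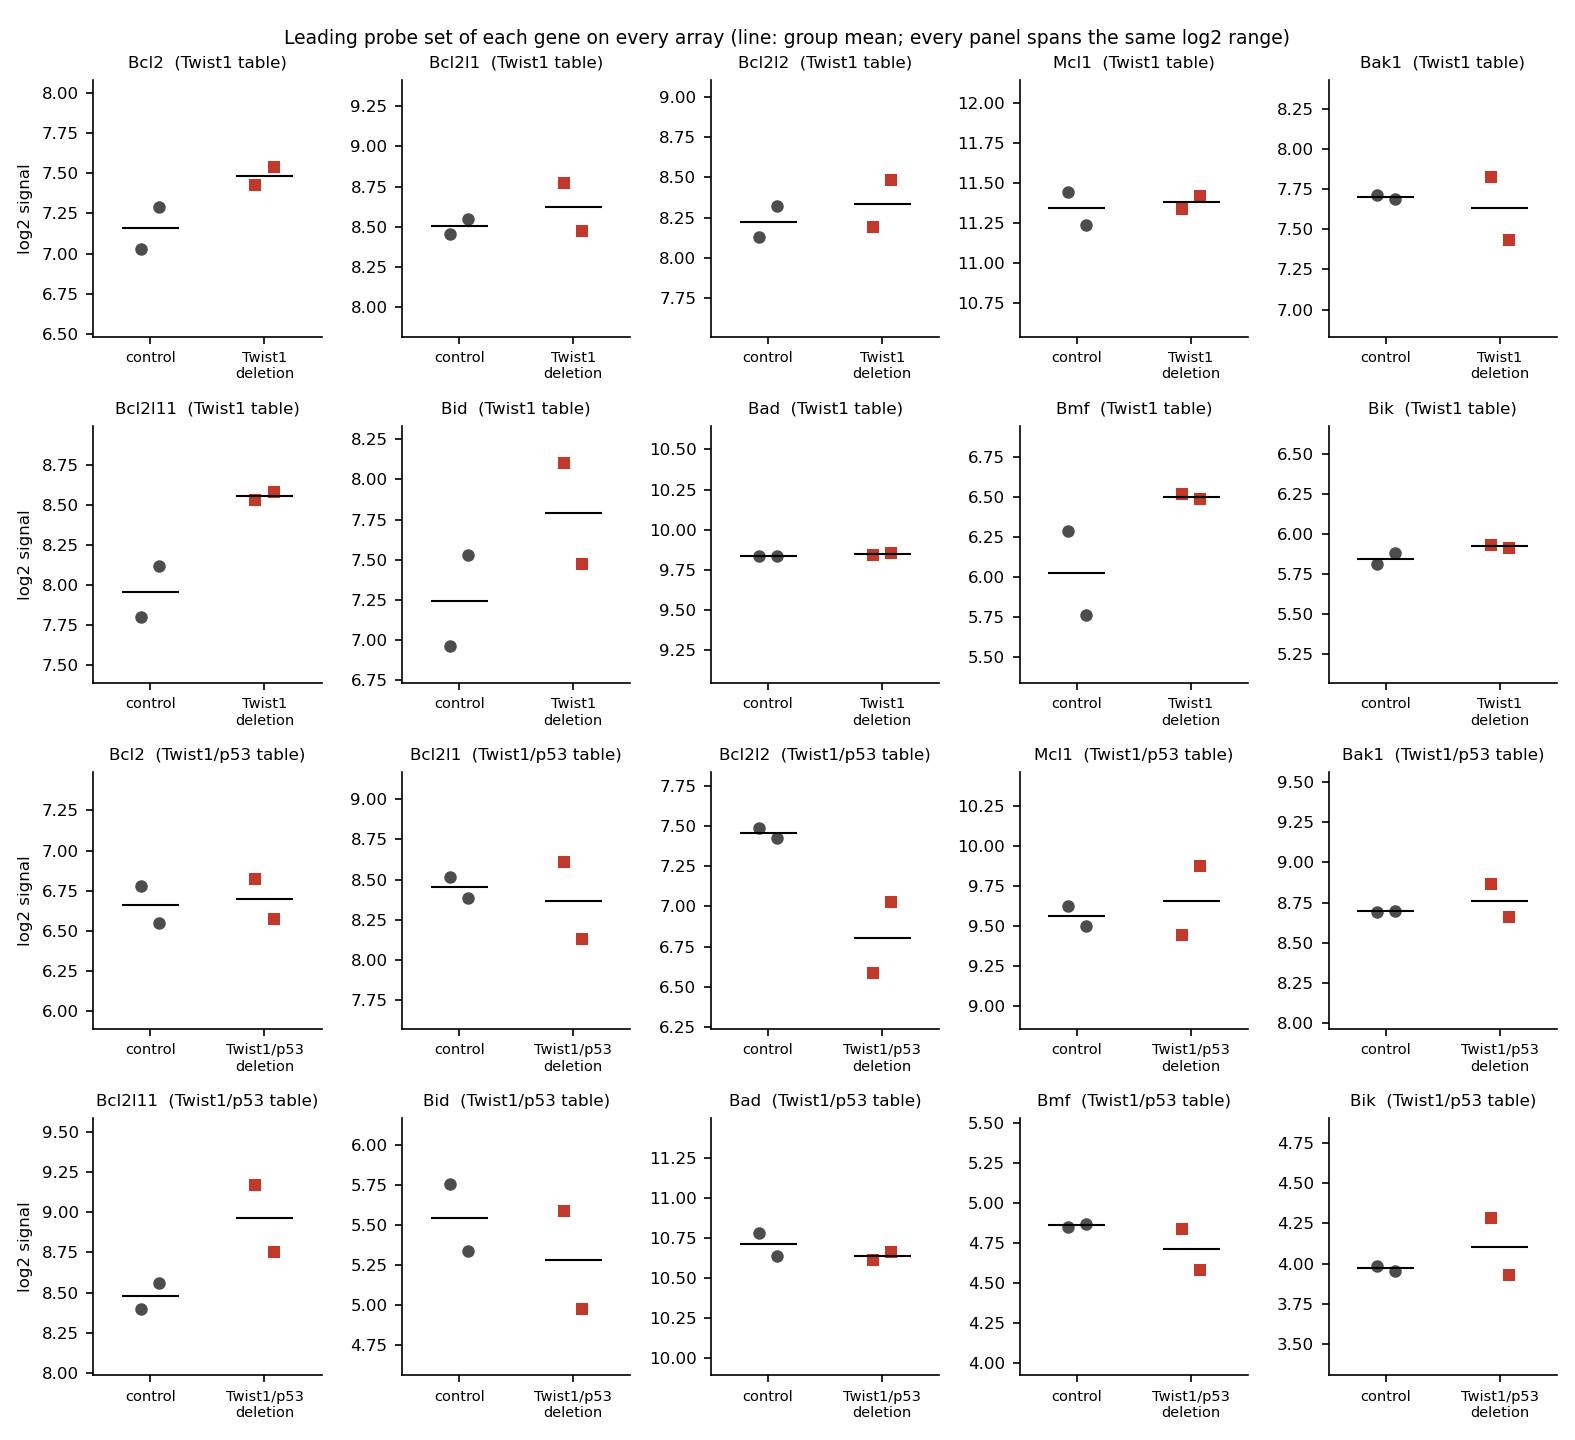
Log2 signal of the leading probe set of each of the 10 genes on every array, in the Twist1 table (rows 1 and 2) and the Twist1/p53 table (rows 3 and 4), with circles for controls, squares for deletion arrays and lines for group means. Each panel spans the same log2 range around its own values. Both deletion arrays lie above both controls for Bcl2l11 in both tables and for Bcl2, Bad, Bmf and Bik in the Twist1 table. They lie below both controls for Bcl2l2 and Bmf in the Twist1/p53 table.

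Bcl2l11 encodes BIM, a BH3-only protein that binds all pro-survival members and can activate the effectors. Its probe set 1456006_at had the largest difference of any in both comparisons, and no probe set of the gene passed the test in either. Among leading probe sets that of Bcl2l2 differed more after Twist1/p53 deletion. Its leading probe set 1456005_a_at gave 7.80 and 8.12 on Twist1 control arrays and 8.53 and 8.58 on deletion arrays (log2 fold change 0.59, 1.51-fold, SE 0.18, unadjusted p = 0.019, limma adjusted p = 0.45). The Twist1/p53 arrays gave 8.40 and 8.56 against 9.17 and 8.76 (0.49, 1.40-fold, SE 0.18, unadjusted p = 0.048, adjusted p = 0.24). Both deletion arrays lay above both controls in each table.

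A second probe set, 1456006_at, went the same way. It gave 6.17 and 6.43 on Twist1 control arrays and 6.88 and 7.03 on deletion arrays (0.65, 1.57-fold, SE 0.19, unadjusted p = 0.016, limma adjusted p = 0.45). Values in the Twist1/p53 table were 4.68 and 4.78 against 5.51 and 5.42 (0.73, 1.66-fold, SE 0.12, unadjusted p = 0.0025, adjusted p = 0.075), which was the lowest adjusted p of any BCL2 family probe set. The difference in the Twist1/p53 table stayed between 0.68 and 0.79 when any single array was left out.

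The other 3 Bcl2l11 probe sets spread more widely. After Twist1 deletion, 1435448_at differed by 0.21 (SE 0.25) and 1426334_a_at by 0.48 (SE 0.28), the latter through 1 deletion array at 5.63 beside one at 4.83 and controls at 4.75 and 4.74. The third, 1435449_at, read 5.11 and 6.26 in the deletion arrays around controls at 5.76 and 5.90, a difference of -0.14 (SE 0.39). After Twist1/p53 deletion all 3 were higher, by 0.36 (SE 0.17), 0.12 (SE 0.19) and 0.36 (SE 0.29) for 1435448_at, 1426334_a_at and 1435449_at. At all 5 probe sets of Bcl2l11 deletion array 1 read below deletion array 2 in the Twist1 table and above it in the Twist1/p53 table.

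**Figure D3:**
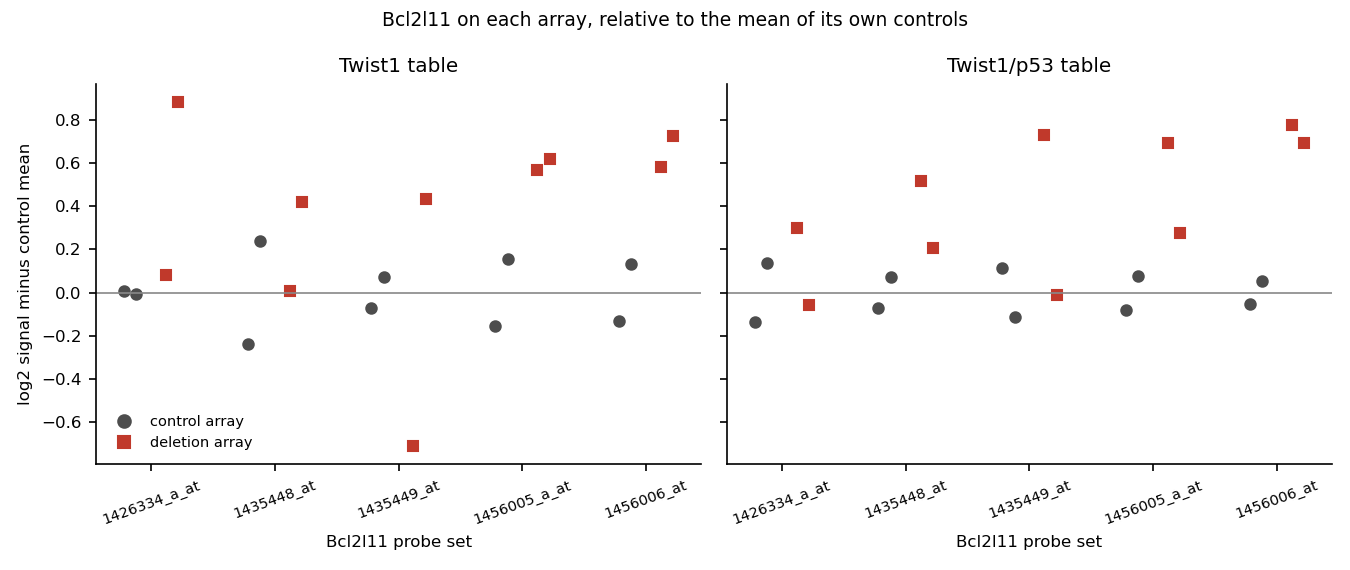
Log2 signal of the 5 Bcl2l11 probe sets on each array minus the mean of the 2 controls of the same table, for the Twist1 table (left) and the Twist1/p53 table (right), with circles for controls and squares for deletion arrays. At 1456005_a_at and 1456006_at all deletion arrays lie above the controls, while the 2 deletion arrays of the Twist1 table lie on either side of them at 1435449_at.

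Bid is cleaved by caspase-8 and links death receptors to mitochondria. The leading probe set 1417045_at gave 6.96 and 7.53 on Twist1 control arrays and 8.10 and 7.47 on deletion arrays (0.54, SE 0.30, limma adjusted p = 0.61). It gave 5.76 and 5.34 on Twist1/p53 control arrays against 5.59 and 4.97 on deletion arrays (-0.27, SE 0.27, adjusted p = 0.64). The groups overlapped in both tables, with a wide spread within groups. The second probe set tested in both tables, 1448560_at, differed by 0.09 (SE 0.23) and -0.21 (SE 0.19). The dim 1447873_x_at differed by 0.53 (SE 0.32) after Twist1 deletion, with overlapping groups. It was too dim to test in the Twist1/p53 table.

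Bad, a BH3-only protein that is held inactive by phosphorylation and 14-3-3 binding, had closely spaced arrays. Its leading probe set 1416582_a_at gave 9.84 and 9.83 on Twist1 control arrays and 9.84 and 9.86 on deletion arrays (0.01, SE 0.13, limma adjusted p = 0.98, 95% interval -0.32 to 0.34). The Twist1/p53 arrays gave 10.78 and 10.64 against 10.61 and 10.66 (-0.07, SE 0.08, adjusted p = 0.68, interval -0.29 to 0.15). The second, 1416583_at, was lower in both comparisons with groups that did not overlap. It read 8.70 and 8.45 against 8.30 and 8.44 after Twist1 deletion (-0.21, SE 0.17, adjusted p = 0.72) and 8.40 and 8.29 against 8.15 and 7.96 after Twist1/p53 deletion (-0.29, SE 0.14, adjusted p = 0.34).

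Bmf, which is tethered to the actin cytoskeleton and is known for a role in anoikis, was led by 1458325_x_at. It gave 6.28 and 5.77 on Twist1 control arrays and 6.51 and 6.49 on deletion arrays (0.48, SE 0.23, limma adjusted p = 0.57), above both controls. Values in the Twist1/p53 table were 4.85 and 4.87 against 4.84 and 4.58 (-0.15, SE 0.14, adjusted p = 0.59), below both controls. The other Bmf probe sets lay near or under the level tested, and went up in both comparisons. After Twist1 deletion 1454880_s_at differed by 0.11 (SE 0.20) and the untested 1422995_at by 0.23. After Twist1/p53 deletion, against the leading probe set, 1422995_at differed by 0.18 (SE 0.08) with groups apart. The untested 1454880_s_at differed by 0.07 there.

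Bik, a BH3-only protein of the endoplasmic reticulum, was dim in the Twist1/p53 table. The probe set 1449836_x_at led the Twist1 table with 5.81 and 5.88 on control arrays and 5.93 and 5.91 on deletion arrays (0.08, SE 0.17, limma adjusted p = 0.90). The probe set 1420363_at led the Twist1/p53 table with 3.98 and 3.96 against 4.28 and 3.93 (0.14, SE 0.14, adjusted p = 0.64), with overlapping groups close to the level tested.

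The difference between the deletions was tested directly over all 8 arrays, by subtracting the Twist1 change from the Twist1/p53 change. Each deletion was read on its own array type and normalized separately. In these differences, here and below, p53 loss therefore cannot be told apart from array type and normalization. Of the 31 BCL2 family probe sets found on both array types 27 were tested and 0 passed (limma, lowest adjusted p = 0.24), where 0.215% of all 22353 did. An unadjusted p under 0.05 was reached by 2, against 11.1% of all. These were Bak1 1425716_s_at, with a difference of 0.79 (SE 0.21, adjusted p = 0.24), and Bcl2l2 1423572_at, with -0.77 (SE 0.28, adjusted p = 0.39). Bid 1417045_at (-0.81, SE 0.46, adjusted p = 0.58) and Bmf 1458325_x_at (-0.63, SE 0.28, adjusted p = 0.48) also differed with opposite signs in the 2 comparisons. For Bcl2l11 the differences were -0.11 (SE 0.26, adjusted p = 0.92) at 1456005_a_at and 0.08 (SE 0.23, adjusted p = 0.93) at 1456006_at, which does not show that the 2 deletions acted alike.

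The comparisons share no array. Their changes had the same sign at 20 of the 31 matched probe sets (64.5%) and opposite signs at 11, against 57.2% with the same sign among all 27942 matched probe sets. Groups were apart in the same direction in both comparisons at 6 of the 31 (19.4%), against 14.7% of all. These 6 were Bcl2l11 1456005_a_at and 1456006_at, Bcl2 1457687_at and Bmf 1422995_at, all higher, and Bcl2l2 1451029_at and Bad 1416583_at, both lower. Bmf 1422995_at was too dim to test in the Twist1 table. Bcl2 1457687_at was dim in the Twist1/p53 table, where its higher control read 4.29 and its lower deletion array 4.30. Each of the 4 outside Bcl2l11 differed by 0.50 or less in size in both comparisons.

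**Figure D4:**
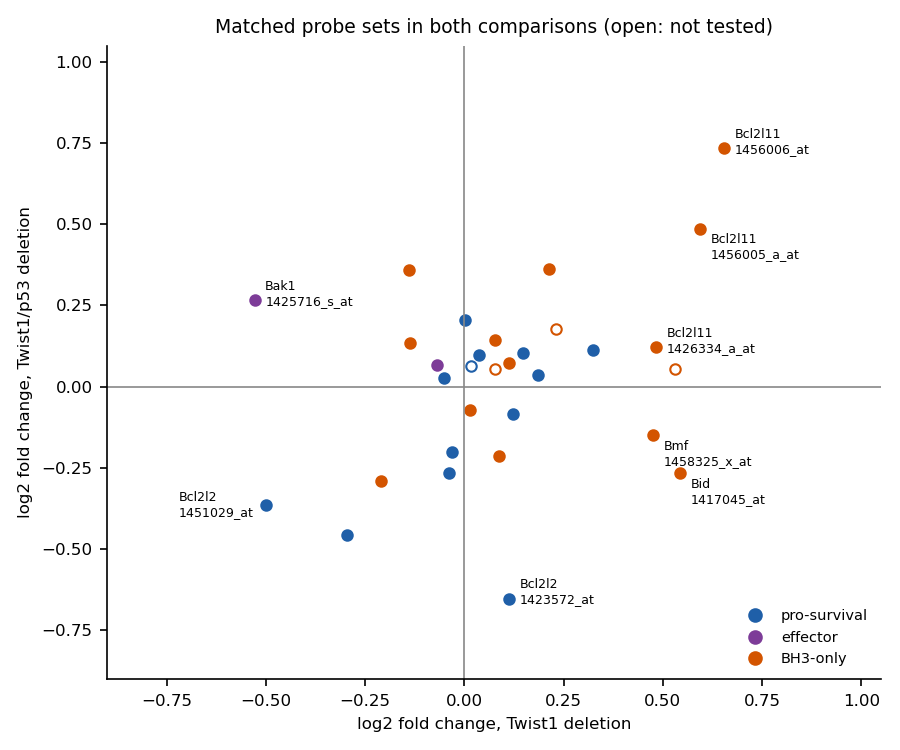
Log2 fold change after Twist1 deletion (horizontal axis) and after Twist1/p53 deletion (vertical axis) for the 31 probe sets found on both array types, coloured by role, with open circles for those not tested. Labels mark tested probe sets beyond 0.47 in size in either comparison; Bcl2l11 1456006_at lies at the upper right, Bak1 1425716_s_at at the upper left and Bcl2l2 1423572_at at the bottom.

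The genes whose pattern was most like that of Bcl2l11 1456005_a_at, the leading probe set with the largest moderated statistic, were Cacng2 (Pearson r = 0.986), Vtn (r = 0.984) and Cnn3 (r = 0.983). The correlation ran over 8 arrays after the mean of each table was subtracted, among 22353 matched probe sets, and is a description of arrays that share tables and groups. Cnn3, a calponin, gave 7.53 and 8.51 on Twist1 control arrays and 9.28 and 9.33 on deletion arrays, and 6.78 and 7.26 against 9.19 and 8.02 on the Twist1/p53 arrays. Vtn was dim, at 4.21 to 4.61 on the Twist1 arrays and 3.88 to 4.25 on the Twist1/p53 arrays. These lie near the levels needed for testing, 4.29 and 3.88. Cacng2 read 6.23 to 6.57 on the Twist1 arrays and 4.21 to 4.57 on the Twist1/p53 arrays.

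Among 13 further genes of the BCL2 family or related to it, 0 of 8 tested passed after Twist1 deletion (4 higher, 4 lower, median 0.09). After Twist1/p53 deletion 2 of 10 rose and 0 fell, where 1.62% of all probe sets were called in either direction, with 7 higher, 3 lower and a median of 0.05. Bnip3, a mitophagy receptor with a BH3-like region that hypoxia is known to induce, rose from 9.24 and 9.01 to 10.74 and 10.78 (log2 fold change 1.64, 3.11-fold, SE 0.11, limma adjusted p = 0.019). In the Twist1 table it read 10.23 and 10.35 against 10.93 and 10.86 (0.61, SE 0.13, adjusted p = 0.36), and the difference between the deletions was 1.03 (SE 0.17, adjusted p = 0.096). Bcl2l15, a little-studied family member, rose from 7.36 and 6.79 to 9.06 and 9.51 after Twist1/p53 deletion (2.21, 4.63-fold, SE 0.27, adjusted p = 0.044). After Twist1 deletion it differed by 0.36 (SE 0.26, adjusted p = 0.68), and the difference between the deletions was 1.85 (SE 0.41, adjusted p = 0.19). Neither Bnip3 nor Bcl2l15 passed when control 1 or control 2 of the Twist1/p53 table was left out, where 0 of all probe sets passed.

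The p53-target members of the family were tested as a pair, Bbc3 (PUMA) and Pmaip1 (NOXA), since Bax was not analysed here. Neither passed in either comparison. Bbc3 read 7.65 and 7.52 in the Twist1/p53 controls against 6.83 and 6.74 in the deletion arrays (-0.80, SE 0.15, limma adjusted p = 0.084). In the Twist1 table it differed by 0.45 (SE 0.36, adjusted p = 0.71), and the difference between the deletions was -1.26 (SE 0.44, adjusted p = 0.37). Pmaip1 differed by 0.54 (SE 0.21, adjusted p = 0.52) after Twist1 deletion and by -0.01 (SE 0.19, adjusted p = 0.99) after Twist1/p53 deletion.

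Genes acting on the 10 members or after them gave no call in either comparison. Of 21 upstream regulators, 14 were higher and 7 lower after Twist1 deletion (median 0.08), and 10 were higher and 11 lower after Twist1/p53 deletion (median -0.02). Fbxw7, part of the ubiquitin ligase that marks MCL1 for degradation, differed by -0.59 (SE 0.16, limma adjusted p = 0.43) and -0.69 (SE 0.16, adjusted p = 0.11) in these comparisons. Foxo1 differed by 0.37 (SE 0.18, adjusted p = 0.57) after Twist1 deletion, and the 14-3-3 gene Ywhaq by 0.44 (SE 0.08, adjusted p = 0.075) after Twist1/p53 deletion.

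Of 15 tested genes of mitochondrial release and the apoptosome, 5 were higher and 10 lower after Twist1 deletion (median -0.10), led by the survivin gene Birc5 (-0.37, SE 0.13, limma adjusted p = 0.49) and Xiap (-0.20, SE 0.13, adjusted p = 0.66). After Twist1/p53 deletion 6 were higher and 9 lower (median -0.02), led by the inhibitor of apoptosis gene Birc3 (1.01, SE 0.24, adjusted p = 0.12) and the caspase-9 platform Apaf1 (-0.62, SE 0.21, adjusted p = 0.21). Of the genes on the death receptor route to Bid, 3 were higher and 5 lower after Twist1 deletion (median -0.04), led by Casp8 (-0.38, SE 0.15, adjusted p = 0.51) and the TRAIL receptor gene Tnfrsf10b (0.35, SE 0.17, adjusted p = 0.56). After Twist1/p53 deletion 2 were higher and 7 lower (median -0.16), led by the TRAIL gene Tnfsf10 (1.19, SE 0.19, adjusted p = 0.065) and Tradd (-0.53, SE 0.16, adjusted p = 0.17).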

How the data were processed

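Total RNA of sorted tumour cells was read on 8 Affymetrix arrays. The authors deposited 1 value per probe set and array, taken to be log2 from the range of the deposited values (2.76 to 14.45). How signals were summarised and normalized is not stated in the labels, but the 2 tables were normalized separately. RNA came from a Qiagen micro kit, per the labels. Genes were named from platform annotation.

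Deletion arrays were tested against the controls of the same table with limma 3.58.1 (R 4.3.3; lmFit and eBayes with an intensity trend) over all probe sets with 1 symbol and a mean at or above the 20th percentile, adjusted by Benjamini-Hochberg over the table, and called under 0.05. Errors are moderated standard errors (SE), with n = 2 arrays per group throughout. The difference between the deletions used all 8 arrays. Fits were tested on simulated data. Same-numbered arrays did not deviate together (correlations 0.03 and -0.04).

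All 10 genes are named, each led by its brightest probe set, and of each pathway list the called genes and the 2 with the largest moderated statistic. Bcl2a1 copies, which share sequence, stayed within counts. The members and lists were chosen with earlier results of these data known. Promoters are from RefSeq (GRCm38.p6). The level of the p53 gene is not reported here.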

Additional observations from a re-analysis of the deposited data

How the results depend on the processing

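With 2 arrays per group, the number of arrays limits every value. No BCL2 family probe set passed after Twist1 deletion, or in the difference between the deletions, under any alternative run. After Twist1/p53 deletion 1 of 27 passed at an adjusted p under 0.1 (Bcl2l11 1456006_at). This was 3.7%, below the 5.73% among all probe sets. When single arrays were left out, 0 to 6 passed. Without deletion array 1 or deletion array 2 the share was again below that of all probe sets, as given above.

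Over all probe sets, the 8 called after Twist1 deletion became 5 with the brightest probe set per gene, 3 with the mean per gene, 15 with unnamed probe sets, 13 in a robust fit, 13 at an adjusted p under 0.1 and 0 to 121 when an array was left out. The 375 called after Twist1/p53 deletion became 246 with the brightest probe set per gene, 619 with unnamed probe sets, 1324 at an adjusted p under 0.1 and 0 to 6358 when an array was left out. The 48 called for the difference became 20 with a filter at the 50th percentile, 23 with the brightest probe set per gene, 25 with the mean per gene, 86 with unnamed probe sets, 104 at an adjusted p under 0.1 and 13 to 207 when an array was left out. With the replicate number as a block, the calls were 8 after Twist1 deletion, 0 after Twist1/p53 deletion and 18 for the difference; the arrays share only a number, so this block does not reflect a pairing in the design. The cause was not tested.

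Among 1215 values of BCL2 family probe sets, or of their means per gene, under alternatives, 68 changed sign, 59 of them on leaving out an array, all between values that did not pass. Under quantile normalization Bak1 1418991_at and Mcl1 1416880_at turned to 0.01 after Twist1 deletion and Bcl2 1443837_x_at to -0.005; under median centring Mcl1 1416881_at turned to -0.01. Bcl2l11 1456005_a_at and 1456006_at kept their sign under all alternatives run, from 0.36 to 0.75 and 0.52 to 0.78 after Twist1 deletion and from 0.28 to 0.69 and 0.68 to 0.79 after Twist1/p53 deletion. The 0.36 is the mean over all Bcl2l11 probe sets, counted here under the leading one.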
